A study of Mus musculus with 6 samples.

Results

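The probe sets described here report the enzymes that build and sulfate heparan sulfate chains. They were chosen by gene symbol: a probe set belonged when the platform annotation gave it exactly 1 symbol and that symbol was Hs3st3a1, Hs3st3b1, Hs3st1, Hs2st1, Hs6st1, Hs6st2, Ndst1, Ndst2, Ext1 or Ext2. Of 34945 probe sets with 1 symbol, 21 belonged, and they covered 9 of the 10 genes. Ndst1 is not analysed here. The samples were 6 Affymetrix arrays of mouse bone marrow cells, 3 from a Grem1+ fraction and 3 from a Grem1- fraction of the same 3 animals. All animals were Grem1;TdTomato reporter mice on a C57BL/6J background, labelled male and aged 6 to 8 weeks, and all were given tamoxifen by mouth, so both fractions share the alleles and the drug. The Grem1+ fraction is described only as sorted for Grem1. The Grem1- fraction had not recombined and was gated to lack CD45, CD31 and Ter-119, which mark blood cells, endothelium and red cell precursors. That gate is stated for this fraction alone. The labels do not say which promoter drives recombination.

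Heparan sulfate is a linear sugar polymer carried by core proteins such as syndecans, glypicans and perlecan. A short linker is built on the core protein, Ext1 and Ext2 together extend the chain, Ndst enzymes replace acetyl with sulfate groups, Glce converts part of the glucuronic acid to iduronic acid, and Hs2st1, the Hs6st enzymes and the Hs3st enzymes add further sulfates. The resulting pattern sets which proteins a chain binds, among them fibroblast growth factors, Hedgehog and Wnt proteins and BMP antagonists such as Gremlin 1. In humans, inherited loss of EXT1 or EXT2 causes multiple cartilage-capped bone tumours, so chain synthesis matters in growth cartilage.

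In Grem1+ cells 1 probe set each of Hs3st3a1, Hs3st3b1 and Ext1 was higher than in Grem1- cells of the same mice. The 2 Hs3st3 genes had the greatest differences of these enzymes, 7.41 and 6.18 on the log2 scale, and Ext1 differed by 2.07. The adjusted p-values were at most 0.0242 (limma, mouse as a block). No member was lower by this test. Hs6st2 was high on 2 Grem1+ arrays and near the dim limit on the third, and it did not pass. The probe sets of the other enzymes did not pass or were too dim to test.

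Values are the authors' log2 expression values per probe set, and a value under log2 4 is called dim, a chosen limit and no measured one. A probe set was tested when its value was above log2 4 on at least 3 of the 6 arrays. Of the 21 probe sets 10 were tested and 8 were dim on all 6 arrays, against 34.3% of all probe sets with 1 symbol. The other 3 exceeded the limit on 1 or 2 arrays. In all, 7 of the 9 genes had a tested probe set. Among the tested, 3 were higher and 0 lower at an adjusted p under 0.05, while over all 18157 tested probe sets 10.1% were higher and 7.76% lower. Another 1 of the 10 had an unadjusted p under 0.05. Hs3st3a1 and 1 Hs6st2 probe set passed the filter through their Grem1+ arrays alone, so the count of 3 in 10 is not a measure of how these enzymes behave as a group. Without the filter the same number, 3 of 21, was called, against 5.04% of all 34945 probe sets. In 8 of the 21 all 3 Grem1+ arrays lay above all 3 Grem1- arrays, against 17.2% of all probe sets, but 2 of these 8 were dim on every array. In 0 of 21 did all Grem1+ arrays lie below, against 13.9%. In 9 of 21 the Grem1+ value was higher in all 3 mice, against 26.6%. The median difference over the 21 was 0.46, against 0.03 over all probe sets. With dim values set to log2 4 it was 0.03, against 0.00, and 5 of 21 (23.8%) then differed by more than 1 log2 unit, close to the 20.8% of all probe sets.

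**Figure D1:**
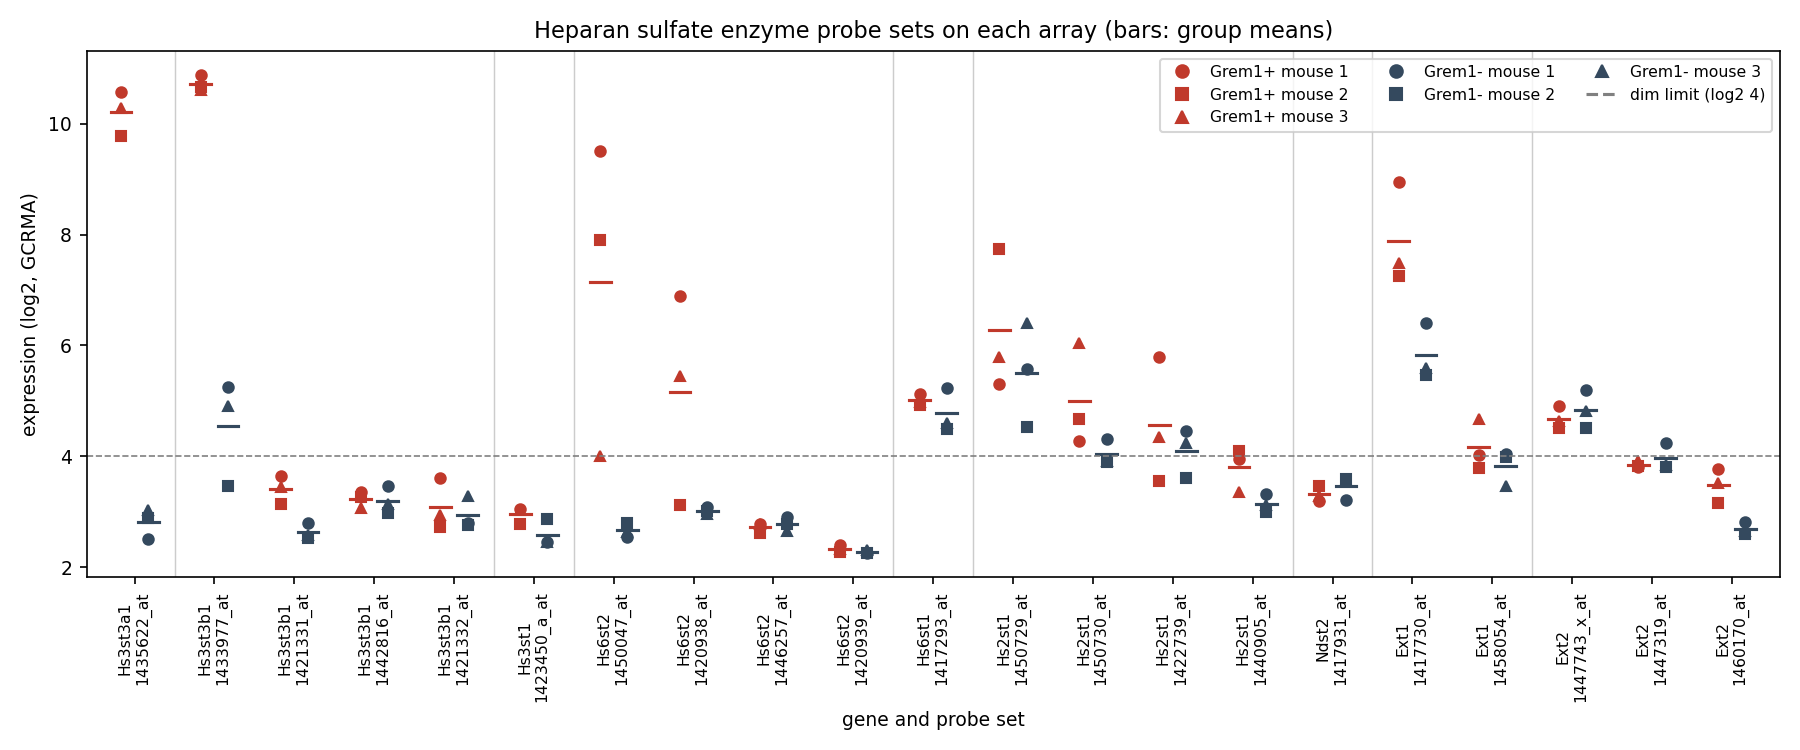
Expression (log2, GCRMA) of the 21 probe sets on each array, Grem1+ in red at the left and Grem1- in dark blue at the right of each position, with 1 marker shape per mouse, bars at group means and a dashed line at the dim limit of log2 4. The Grem1+ arrays of Hs3st3a1 and of Hs3st3b1 probe set 1433977_at sit between 9.78 and 10.89, far above their Grem1- partners, and most other probe sets overlap or lie under the line.

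The arrays themselves bear on how these differences may be read. Array medians ran from 3.74 to 3.81 and at most 0.00222% of values were equal between 2 arrays. The Gapdh control has a 3′ minus 5′ difference that grows as RNA shortens. On the Grem1+ arrays of mice 1, 2 and 3 this difference was 2.98, 3.88 and 3.87. On their Grem1- arrays it was 2.31, 2.99 and 2.68, so it was higher in Grem1+ in every mouse. The actin control, read the same way, stood at 0.166, -0.031 and 0.138 on the Grem1+ arrays of mice 1, 2 and 3, against 0.172, 0.173 and 0.147 on their Grem1- arrays, so it was not higher in Grem1+. The marker lists are read by the brightest probe set of each gene. Among 12 chondrocyte markers 11 were higher in Grem1+, and the log2 of their summed level was 14.96 to 15.14 on Grem1+ arrays, against 12.42 to 12.93 on Grem1- arrays. Of 7 tested osteoblast markers 4 were higher and 0 lower, with summed levels of 12.05 to 12.38 on Grem1+ arrays, against 10.55 to 10.66 on Grem1- arrays. Among 12 pan-haematopoietic markers 8 were lower, or 11 when any probe set of a gene counts. Their summed levels were 12.05 to 13.12 on Grem1+ arrays, against 14.55 to 14.72 on Grem1- arrays. Of the tested markers 8 of 11 granulocyte, 3 of 5 erythroid and 0 of 5 endothelial ones were lower, and 0 of each list were higher. Some called markers passed the filter through a single fraction, so these counts do not measure how a list behaves as a group. Cd48, Gata1 and the called probe sets of Ptprc and Cd53 did so through Grem1- arrays, and Sp7 through Grem1+ arrays. Ptprc, the gene of the gated antigen CD45, was lower in Grem1+ by 1 of its 2 probe sets, and the brighter one, which did not pass, stood at 7.29, 9.61 and 10.56 in Grem1+ and at 12.13, 11.78 and 12.37 in Grem1-, so its transcript was high in the fraction gated against it. Grem1 itself, at 4.49, 4.14 and 8.61 in Grem1+ and 3.69, 3.75 and 3.70 in Grem1-, did not pass (difference 2.04, limma adjusted p = 0.245). Xist was high on both arrays of mouse 3 alone, at 10.60 in its Grem1+ and 11.04 in its Grem1- fraction, against the label of a male. The part of cell make-up and RNA quality in the results below was not tested, and in such bulk samples more cells of a type and more RNA per cell cannot be told apart.

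Hs3st3a1 and Hs3st3b1 encode heparan sulfate 3-O-sulfotransferases, which add the rarest sulfate of the chain as one of the last steps. The single probe set of Hs3st3a1 read 10.57, 9.78 and 10.29 in Grem1+ cells of mice 1, 2 and 3 and 2.51, 2.89 and 3.03 in Grem1- cells. All Grem1+ arrays were bright and all Grem1- arrays were dim. The group averages were 10.21 ± 0.40 in Grem1+ and 2.81 ± 0.27 in Grem1- (SD, n = 3 arrays each). The difference was 7.41 (SE 0.36, limma adjusted p = 0.00989), higher in 3 of 3 mice and the 6th greatest of the 18157 tested. That rank uses the dim values as they stand, and with dim values at log2 4 the difference was 6.21. The probe set passed the filter through its Grem1+ arrays alone. Because every Grem1- array was dim, the fold is a bound: the gene was at least 74.2-fold higher in Grem1+, with dim values at log2 4.

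Hs3st3b1 has 4 probe sets, and they gave different readings. Probe set 1433977_at read 10.89, 10.66 and 10.61 in Grem1+ and 5.25, 3.47 and 4.91 in Grem1-. The Grem1+ arrays were close to each other and more than 5 log2 units above the highest Grem1- array. The averages were 10.72 ± 0.15 in Grem1+ and 4.54 ± 0.95 in Grem1- (SD, n = 3 each), a difference of 6.18 (SE 0.44, limma adjusted p = 0.00992), or 6.00 with dim values at log2 4. The other 3 probe sets were dim on all arrays, at 2.72 to 3.64 in Grem1+ and 2.52 to 3.47 in Grem1-. Probe set 1421331_at among them stood at 3.64, 3.13 and 3.45 in Grem1+ and at 2.80, 2.52 and 2.59 in Grem1-, without overlap but wholly under the dim limit. In the annotation 2 of the 4 name the same transcript record. The call on Hs3st3b1 therefore rests on 1 of 4 probe sets.

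The 2 enzymes are close paralogs with nearly the same catalytic part, and the probe sequences were not used here, so cross-hybridisation between the 2 transcripts was not tested. Both positive probe sets carry plain _at names, which the array maker gives to probe sets meant to match 1 transcript. In RefSeq (assembly GRCm38.p6) the 2 genes are neighbours on chromosome 11, with Cox10, a haem A synthesis gene, as the only protein-coding gene among 7 annotated genes between them. Cox10 was picked for its position, after its values could be seen. Its 1 tested probe set, whose name marks probes that other transcripts may share, read 5.67, 4.80 and 5.36 in Grem1+ and 5.60, 5.59 and 5.39 in Grem1- (difference -0.25, limma adjusted p = 0.655), and its other 2 were dim on all arrays. No Cox10 probe set was thus both free of shared probes and bright enough for a test, so these values do not settle how Cox10 itself behaved. The difference between Cox10 and the Hs3st3 genes was not tested.

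The 250 bases before each annotated start are shown because these 2 neighbouring genes were the 2 enzymes with the greatest differences. Both sequences are RefSeq's for GRCm38.p6, written 5′ to 3′ on the gene's own strand, with matches to the motifs named below in capitals. Such a window was found for 8 of the 10 genes.
Hs3st3a1, chr11:64435082-64435331, plus strand: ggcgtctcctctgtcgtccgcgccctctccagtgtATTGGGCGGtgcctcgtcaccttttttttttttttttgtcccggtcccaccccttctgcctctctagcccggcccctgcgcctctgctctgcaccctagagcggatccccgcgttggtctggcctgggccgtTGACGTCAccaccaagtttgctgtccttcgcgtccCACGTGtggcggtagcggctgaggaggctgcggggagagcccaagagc
Hs3st3b1, chr11:63922285-63922534, minus strand: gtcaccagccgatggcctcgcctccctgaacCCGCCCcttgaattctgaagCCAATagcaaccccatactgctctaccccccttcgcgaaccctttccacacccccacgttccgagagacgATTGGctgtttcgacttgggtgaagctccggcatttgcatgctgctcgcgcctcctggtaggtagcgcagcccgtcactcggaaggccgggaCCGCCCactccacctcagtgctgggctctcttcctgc

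Both windows are rich in G and C, at 64% for Hs3st3a1 and 62.4% for Hs3st3b1, against a median of 52.4% over 32851 windows of the same length. Motifs were read on both strands. The GC box GGGCGG matched once in Hs3st3a1 and at 2 places in Hs3st3b1, and 32.7% of all windows hold it. The CCAAT box CCAAT matched once and at 2 places, and 33.8% hold it. In Hs3st3a1 the GC box and the CCAAT box overlap. The cyclic AMP response element TGACGTCA, held by 1.55% of windows, and the E-box CACGTG, held by 6.02%, each matched once in Hs3st3a1, 83 and 48 bases before the start, and not in Hs3st3b1. Neither window held the SOX motif AACAAT (9.42% of windows), the RUNX motif TGTGGT (14.0%), the AP-1 motif TGANTCA (6.75%) or the TATA box TATAAA (12.4%). A match describes these letters and is not a measured binding site.

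Hs3st1 makes the 3-O-sulfated site that binds antithrombin. Its single probe set was dim on all arrays, at 3.05, 2.78 and 3.04 in Grem1+ and 2.45, 2.86 and 2.45 in Grem1-, and the groups overlapped. It was not tested. The 3-O enzymes outside the chosen genes were dim too: Hs3st2, Hs3st4 and Hs3st6, with the 6-O enzyme Hs6st3, had 6 probe sets in all, none tested and none above 3.53 on any array. Bright values among the 3-O-sulfotransferases read here were thus limited to 1 probe set each of Hs3st3a1 and Hs3st3b1.

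**Figure D2:**
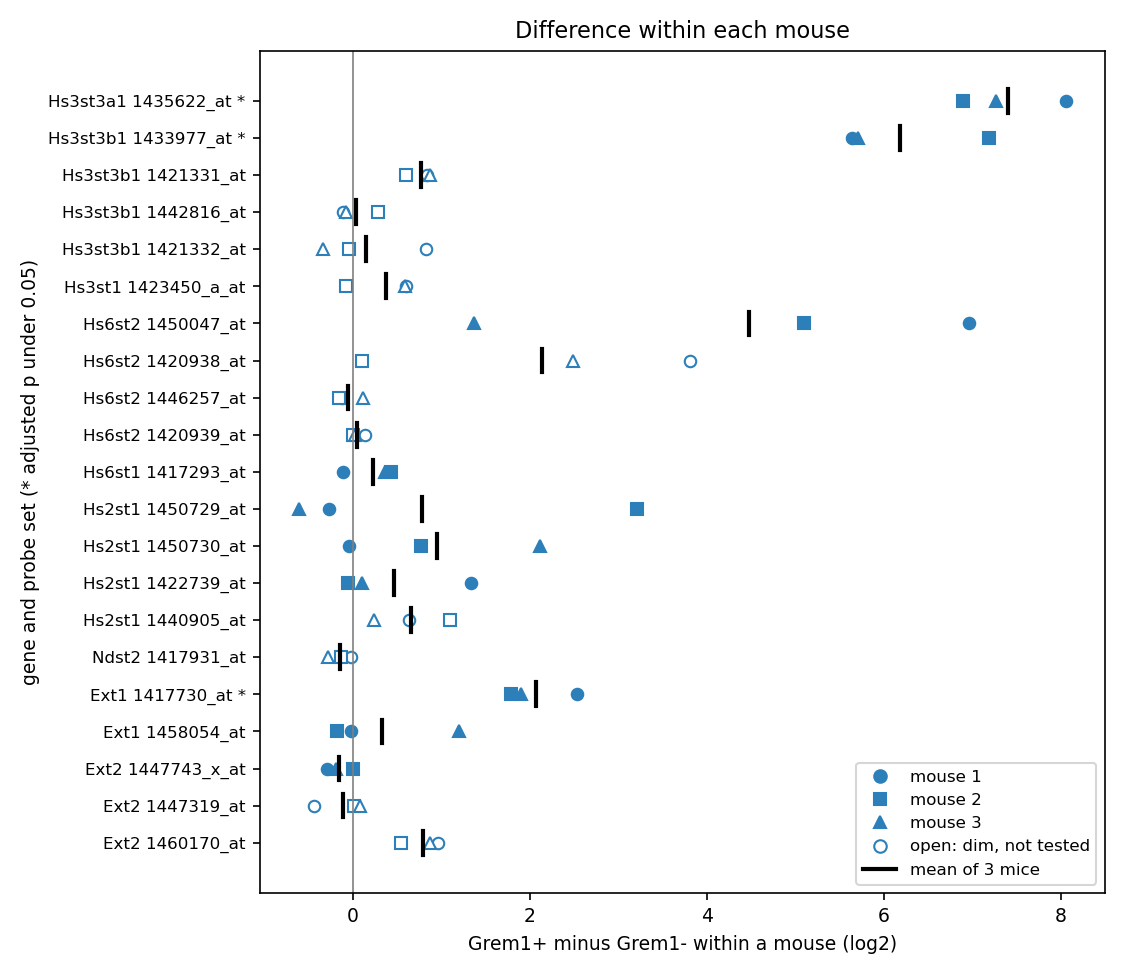
Difference Grem1+ minus Grem1- within each of the 3 mice (log2) for the 21 probe sets, 1 marker shape per mouse, a black bar at the mean, open markers for probe sets too dim to be tested, and an asterisk for an adjusted p under 0.05. Hs3st3a1 and Hs3st3b1 probe set 1433977_at lie between 5.64 and 8.06 in every mouse, while Hs6st2 probe set 1450047_at spreads from 1.37 to 6.96.

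Hs6st1 and Hs6st2 encode 6-O-sulfotransferases, whose product takes part in binding of fibroblast growth factors to their receptors. Hs6st2 probe set 1450047_at read 9.51, 7.90 and 4.002 in Grem1+ cells of mice 1, 2 and 3 and 2.55, 2.80 and 2.64 in Grem1- cells. Every Grem1+ array lay above every Grem1- array, but the Grem1+ array of mouse 3 only just exceeded the dim limit. Grem1+ exceeded Grem1- by 4.48 (SE 1.16), which missed the threshold (limma adjusted p = 0.0691), and over all alternatives the adjusted p ran from 0.0190 to 0.254. It passed without the block when mouse 3 was left out, and under the mean of probe sets per gene. That mean took in tested probe sets only, so for Hs6st2 it was 1450047_at alone and the difference stayed at 4.48. Without mouse 3 it was 6.03, and with dim values at log2 4 it was 3.14. On the same Grem1+ arrays of mice 1, 2 and 3 the log2 of the summed level of the 12 pan-haematopoietic markers was 12.05, 12.42 and 13.12, while their median level was 6.16, 5.38 and 6.35. The sum was highest where Hs6st2 was lowest, the median did not follow that order, and the part of blood cell RNA in this spread was not tested.

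Of the 3 other Hs6st2 probe sets, 1420938_at read 6.90, 3.12 and 5.44 in Grem1+ and 3.09, 3.01 and 2.95 in Grem1-. It was bright in Grem1+ of mice 1 and 3 but dim in mouse 2, where 1450047_at was bright. It was above the dim limit on only 2 arrays and was not tested. The 2 remaining probe sets, 1420939_at and 1446257_at, were dim throughout, at 2.27 to 2.77 in Grem1+ and 2.26 to 2.90 in Grem1-. Since 3 of the 4, 1450047_at among them, name the same transcript record in the annotation, they disagree about what was meant to be 1 target. Hs6st1 read 5.12, 4.93 and 4.98 in Grem1+ and 5.23, 4.49 and 4.61 in Grem1-, low and overlapping, and the difference of 0.23 did not pass (95% interval -0.57 to 1.04, limma adjusted p = 0.642).

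Hs2st1 encodes the only 2-O-sulfotransferase of heparan sulfate, which acts on iduronic acid. Its 4 probe sets had mean differences of 0.46 to 0.95, and none of the 3 tested passed. The brightest, 1450729_at, read 5.30, 7.75 and 5.79 in Grem1+ and 5.57, 4.54 and 6.40 in Grem1-. Only mouse 2 was higher in Grem1+, by 3.21, and without that mouse the difference turned to -0.44. The probe set 1450730_at read 4.28, 4.67 and 6.04 in Grem1+ and 4.32, 3.91 and 3.92 in Grem1- (difference 0.95, limma adjusted p = 0.272), so here mouse 3 stood out. The third, 1422739_at, read 5.80, 3.55 and 4.34 in Grem1+ and 4.46, 3.60 and 4.24 in Grem1-, with mouse 1 apart. These 3 name the same transcript record, and in each a different mouse carried the difference. The fourth, 1440905_at, was at 3.96, 4.09 and 3.36 in Grem1+ and 3.33, 2.99 and 3.12 in Grem1-, without overlap but too dim to test. The intervals of the tested probe sets, which reach from -1.60 to 3.16, leave room for differences of either sign.

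Ndst2 encodes an N-deacetylase and N-sulfotransferase that in mice is required for heparin in mast cells. It was dim on all arrays, at 3.19, 3.46 and 3.29 in Grem1+ and 3.21, 3.60 and 3.56 in Grem1-, and was not tested. It was the 1 probe set of the 21 with a lower value in Grem1+ in all 3 mice, by 0.02 to 0.27, all under the dim limit. Ndst3 and Ndst4, which have 5 probe sets, were also dim on every array. Of 12 mast cell markers 6 had a tested probe set, and 4 of these were lower in Grem1+ by at least 1 probe set and 0 higher. The lower ones were Mcpt8, a basophil protease, Kit, Srgn, a proteoglycan core protein of many blood cells, and Hdc, which makes histamine, on 1 of its 2 probe sets. The called Kit probe set passed the filter through its Grem1- arrays alone. The mast cell proteases Mcpt4, Cma1, Tpsb2 and Tpsab1 were dim throughout. Cpa3, the mast cell carboxypeptidase, read 2.90, 2.69 and 3.79 in Grem1+ and 4.39, 3.81 and 4.39 in Grem1-, without overlap but above the dim limit on only 2 arrays, and was not tested.

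Ext1 and Ext2 form the polymerase that lengthens the chain by alternating sugars. Ext1 probe set 1417730_at read 8.94, 7.25 and 7.49 in Grem1+ and 6.41, 5.46 and 5.59 in Grem1-. The lowest Grem1+ array was above the highest Grem1- array, and mouse 1 was highest in both fractions. The averages were 7.89 ± 0.92 in Grem1+ and 5.82 ± 0.52 in Grem1- (SD, n = 3 each). The difference of 2.07 (SE 0.32, limma adjusted p = 0.0242) was seen in 3 of 3 mice, at 2.53, 1.79 and 1.90. The second Ext1 probe set, 1458054_at, was near the dim limit, at 4.02, 3.80 and 4.67 in Grem1+ and 4.04, 3.98 and 3.47 in Grem1-, and did not pass (difference 0.33, limma adjusted p = 0.622). With the mean of both probe sets Ext1 differed by 1.20 (limma adjusted p = 0.0413).

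Ext2 did not follow Ext1 in its tested probe set, although the difference between the 2 genes was not tested. That probe set, 1447743_x_at, read 4.91, 4.51 and 4.63 in Grem1+ and 5.20, 4.50 and 4.81 in Grem1- (difference -0.16, 95% interval -0.92 to 0.60, limma adjusted p = 0.745). Its name marks probes that other transcripts may share. The probe set 1460170_at was higher in every mouse, at 3.77, 3.15 and 3.53 in Grem1+ and 2.81, 2.60 and 2.66 in Grem1-, but dim on all arrays. The third, 1447319_at, was at 3.81, 3.82 and 3.92 in Grem1+ and 4.24, 3.80 and 3.84 in Grem1-. No Ext2 probe set was thus both free of shared probes and bright enough for a test.

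**Figure D3:**
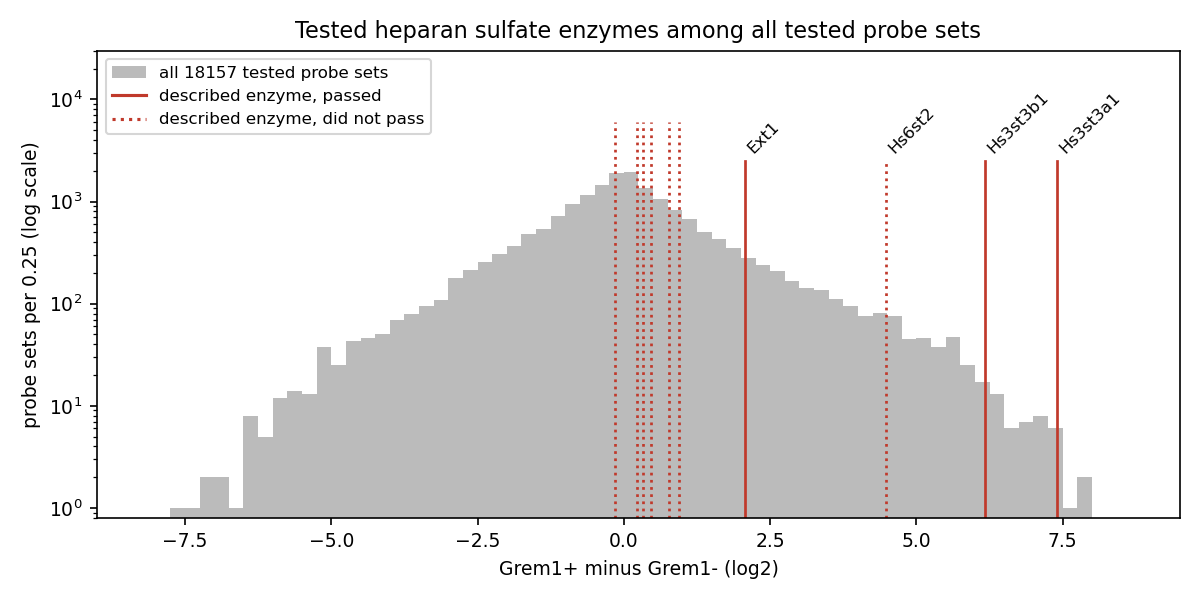
Number of probe sets (log scale) by their difference Grem1+ minus Grem1- (log2) for all 18157 tested probe sets in grey, with red lines at the 10 tested probe sets of the heparan sulfate enzymes, solid where the adjusted p was under 0.05 and dotted otherwise. Hs3st3b1 at 6.18 and Hs3st3a1 at 7.41 stand in the thin right tail, and 6 dotted lines lie between -0.16 and 0.95, in the bulk.

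The calls depend on having 3 mice. When 1 mouse was left out and the block was kept, limma called 0 of all 18157 probe sets, these enzymes included, while 4967 to 5158 had an unadjusted p under 0.05. The adjusted p of both Hs3st3a1 and Hs3st3b1 was then 0.0516 to 0.0637. Without the block, an alternative chosen after seeing the data, 1875 to 1927 probe sets were called with a mouse left out. Hs3st3a1 and Hs3st3b1 then passed whichever mouse was left out, at adjusted p-values of 0.0152 to 0.0190, and Ext1 passed without mouse 1 (adjusted p = 0.0497) but not without mouse 2 (0.120) or mouse 3 (0.152).

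The rest of the pathway also had higher genes and no lower ones by this test. Of 30 further genes of linker synthesis, chain modification, editing and breakdown, 27 had 57 probe sets, of which 29 were tested. There 10 probe sets of 8 genes were higher and 0 lower, again against 10.1% and 7.76% over all tested probe sets. The median difference over the 57 was 0.22, against 0.03 over all. In 21 of the 57 all Grem1+ arrays lay above all Grem1- arrays, and in 4 all lay below, against 17.2% and 13.9%.

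Glce, the epimerase that makes the iduronic acid on which Hs2st1 acts, read 9.11, 10.38 and 9.58 in Grem1+ and 6.33, 7.21 and 5.16 in Grem1- on its tested probe set. The groups were more than 1 log2 unit apart, and the difference was 3.45 (SE 0.43, limma adjusted p = 0.0178). Its other 2 probe sets were dim on most arrays and untested, with differences of 0.05 and 1.37.

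The linker on which the chain starts is shared with chondroitin sulfate, the main sugar chain of cartilage aggrecan, so these enzymes serve both polymers. B3galt6, which adds its second galactose, read 6.40, 8.15 and 9.43 in Grem1+ and 2.97, 4.18 and 4.25 in Grem1- on probe set 1435252_at (difference 4.20, SE 0.45, limma adjusted p = 0.0137). Its other tested probe set differed by 1.54 and did not pass (adjusted p = 0.281). Fam20b, the kinase that phosphorylates the linker's xylose, differed by 2.38 (SE 0.32) and Pxylp1, which removes that phosphate, by 1.95 (SE 0.28) on 1 of 2 tested probe sets each. B4galt7, which adds the first galactose, differed by 1.96 (SE 0.28) and 1.56 (SE 0.33) on its 2 probe sets. The limma adjusted p-values of these 4 probe sets were 0.0196 to 0.0452. B3gat3, which completes the linker, differed by 0.02 and -2.20 on its 2 probe sets and did not pass on either, and Xylt2, which adds the xylose, was dim. Of the EXT-like genes Extl1, Extl2 and Extl3, 0 of 4 tested probe sets passed, with differences of 0.17 to 1.29.

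**Figure D4:**
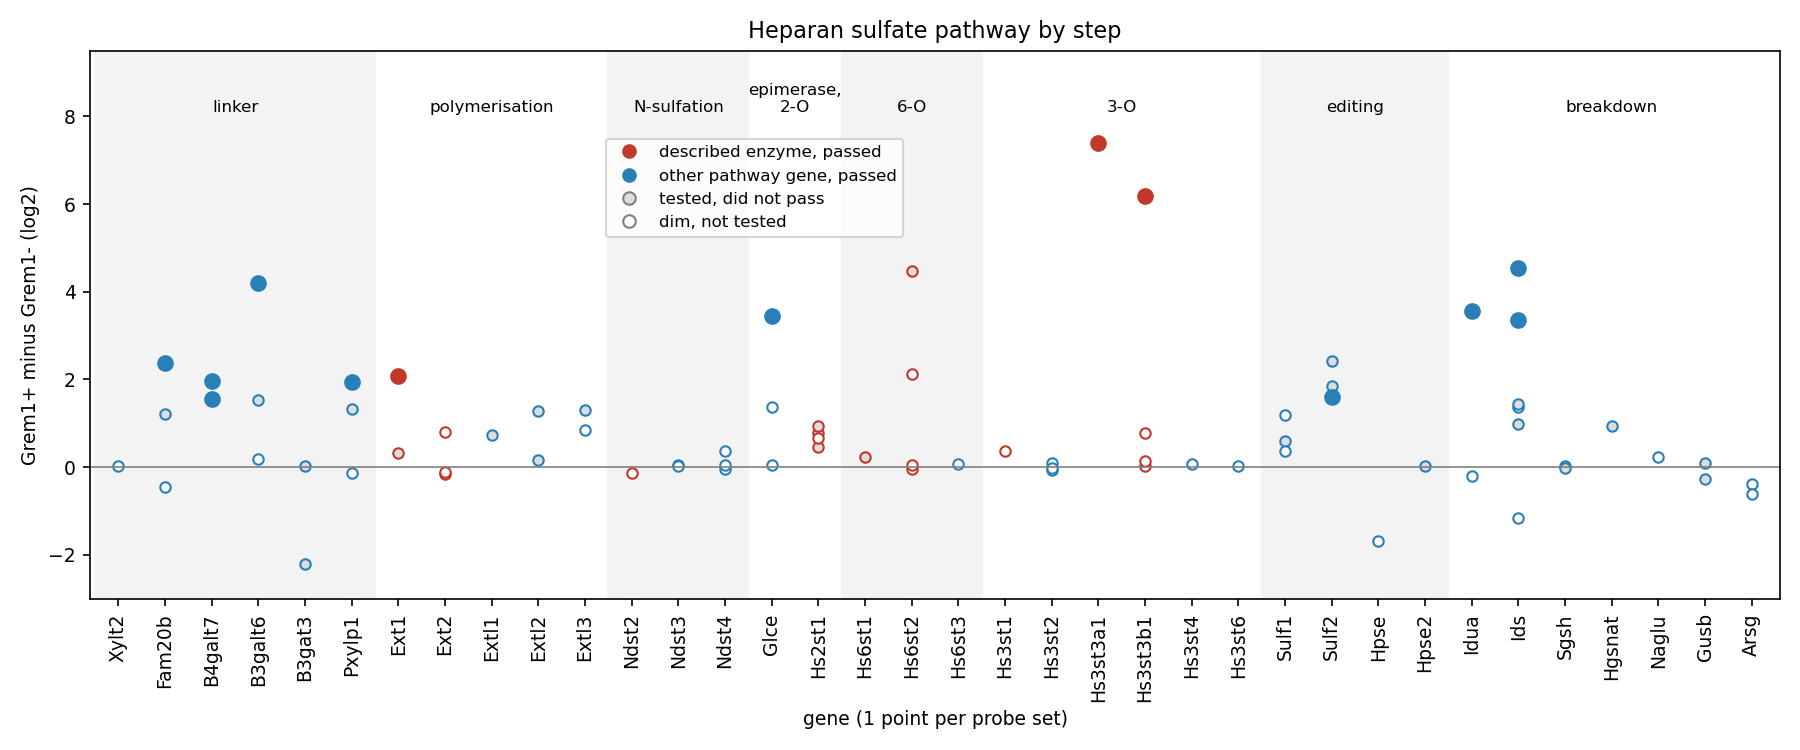
Difference Grem1+ minus Grem1- (log2) of every probe set of the heparan sulfate pathway, 1 point per probe set, ordered by step from linker to breakdown, red for the 9 chosen genes with a probe set and blue for the other 27, filled where the adjusted p was under 0.05, grey where it was not and open where the probe set was too dim to be tested. Filled points lie at linker, polymerisation, epimerase, 3-O, editing and breakdown steps, all above 0, and the open N-sulfation points lie near 0.

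After synthesis, chains are edited outside the cell and broken down in lysosomes. Sulf2, an extracellular 6-O-endosulfatase, read 7.32, 7.09 and 7.26 in Grem1+ and 5.58, 5.29 and 6.00 in Grem1- on probe set 1442408_at (difference 1.60, SE 0.30, limma adjusted p = 0.0351). Its 2 other tested probe sets differed by 1.85 and 2.42 without passing. Hpse, heparanase, was dim in Grem1+, at 2.82, 2.34 and 2.65, and was above the limit in Grem1- only in mouse 2, at 3.80, 6.14 and 2.92. It was not tested.

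In the lysosome Idua removes iduronic acid and Ids its sulfate, from dermatan sulfate as well as heparan sulfate. Idua read 9.53, 8.51 and 8.41 in Grem1+ and 5.12, 5.18 and 5.46 in Grem1- on its tested probe set (difference 3.56, SE 0.41, limma adjusted p = 0.0154). Ids differed by 4.54 (SE 0.56) and 3.35 (SE 0.37) on 2 of its 4 tested probe sets, at adjusted p-values of 0.0170 and 0.0145, and by 0.97 and 1.44 on the others, which did not pass. Its untested probe sets went in opposite directions, each without overlap. Probe set 1427812_at differed by 1.38 and 1427813_at by -1.16. Sgsh, Hgsnat and Gusb did not pass, with differences of -0.28 to 0.94, and Naglu and Arsg were too dim to test. Higher breakdown genes were thus Idua and Ids of the 5 with a tested probe set.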

How the data were processed

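Expression was measured on 6 Affymetrix arrays of biotin-labelled material from total RNA, amplified with a NuGEN kit per the labels' protocols. The authors deposited 1 log2 value per probe set and array, and the submitters' processing notes name GCRMA (background from probe sequence, normalization, summary of probes) without version or settings. That the scale is log2 follows from the range, 0.798 to 14.05. The scanner files were not used here.

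The table held 45101 probe sets, 64 of them controls. The platform annotation gave 34945 a single symbol, 932 several and 9160 none, and only the first were tested. Entrez identifiers of 34741 were found in RefSeq's table, which changed 0 symbols. The filter (log2 above 4 on at least 3 arrays) left 18157 probe sets of 10151 genes. Groups came from the titles. Grem1+ minus Grem1- was fitted in limma 3.58.1 under R 4.3.3, two-sided and blocked by mouse, with Benjamini-Hochberg adjustment over all 18157 and a threshold of 0.05 (degrees of freedom 2 residual and 2.28 prior). Precision is limited by the number of arrays. Every probe set of the chosen genes is described, and other pathway genes are named where they passed. The pairing comes from the series design text, which states that the fractions are matched by mouse; deviations of same-numbered arrays correlated at 0.014, 0.052 and 0.031. The fit was also run on simulated data, the outcome of which is not given here and is not used as support. The members, lists, filter and tests were chosen with earlier results of these data known. Promoter windows were read with Python 3.11.15. The alternatives were the block, the filter, the floor, normalization, the treatment of several probe sets per gene, shared probe sets, the variance model and each mouse.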

Additional observations from a re-analysis of the deposited data

How the results depend on the processing

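Direction and side of the threshold were kept by Hs3st3a1 (differences 6.21 to 7.45), Hs3st3b1 (6.00 to 6.22) and Ext1 (1.20 to 2.11) under all 11 alternatives that kept every mouse. Hs3st3a1 and Hs3st3b1 have 1 tested probe set each. The alternatives on several probe sets per gene and on shared probe sets therefore could not change their differences. Those alternatives also left out the dim Hs3st3b1 probe sets, so they do not bear on the disagreement among its probe sets. Without the replicate block the same number of these enzymes' probe sets was called higher, 3, and 2329 higher and 1876 lower over all probe sets, and no named call was lost. Under the mean of probe sets per gene Hs6st2 passed (limma adjusted p = 0.0465), which gave 4 genes. Only tested probe sets entered that mean, so Hs6st2 was read there by 1450047_at alone, with its difference unchanged. B4galt7 probe set 1426303_at lost its call without the filter (adjusted p = 0.0647) and with the trend and robust variance model (0.0707), as did Sulf2 with the latter (0.0624). Over all probe sets, 1095 were higher and 666 lower without the filter, which tests more probe sets, and 1191 and 864 with 1 probe set per gene, which tests fewer. With the block kept and replicate 1, 2 or 3 left out, the counts of higher and of lower probe sets, among these enzymes and over all, were each 0, as fewer samples leave fewer degrees of freedom. Without the block and with a mouse left out, 1114, 1176 and 1122 were higher and 761, 751 and 796 lower. Leaving out a mouse, with or without the block, moved Hs2st1 probe set 1450729_at between -0.44 (without mouse 2) and 1.47, and Ext1 probe set 1458054_at between -0.10 (without mouse 3) and 0.59, and neither had passed. Hs6st2 probe set 1450047_at failed the filter under quantile normalization, median centring and the stricter limit, so those gave no value. Signal near the dim limit restricts what can be said of Hs3st1, Ndst2, Ext2 and most Hs3st3b1 and Hs6st2 probe sets.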

Other observations

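Sulf1, the other extracellular endosulfatase, was highest on the Grem1+ array of mouse 2. Probe set 1436319_at read 2.90, 7.24 and 3.34 in Grem1+ and 2.98, 3.68 and 3.23 in Grem1-. Probe set 1438200_at read 4.72, 7.06 and 4.86 in Grem1+ and 5.44, 4.63 and 4.77 in Grem1-, above the dim limit on all 6 arrays. The first was too dim to test and the second did not pass (difference 0.60, limma adjusted p = 0.607). On B3gat3, probe set 1431219_at read 4.54, 3.07 and 4.55 in Grem1+ and 5.21, 5.54 and 8.02 in Grem1-, lower in every mouse without passing (difference -2.20, limma adjusted p = 0.0830), while 1416960_at stood at 4.15 to 4.66 in Grem1+ and 4.09 to 4.58 in Grem1-.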
